A study of Mus musculus with 9 samples.

Results

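The 10 genes described here encode AP-1 subunits and companion immediate early factors: Fos, Fosb, Fosl1, Fosl2, Jun, Junb, Jund, Atf3, Batf and Egr1. They were taken by symbol from the 24505 genes of a GRO-seq table, in which each had 1 row, and from 2 tables of H3K27me3 regions, where 30 of 49405 regions carried a member as nearest gene. GRO-seq (global run-on sequencing) reads RNA being made by engaged polymerase, and H3K27me3 is the histone mark laid down by Polycomb repressive complex 2. All cultures were organoids (mini-guts) from mouse duodenum: RANKL, labelled intestinal M cell (a cell that takes up particles from the gut and hands them to immune cells), ENRI, labelled enterocyte, and WENRC, labelled intestinal stem cell. GRO-seq had 2 libraries per culture; the mark was read in RANKL (2 libraries, pooled by the authors) and WENRC (1 library). The culture names are not spelled out in the labels, nor are strain, genotype, age, doses or times given there. ENRI and WENRC libraries are numbered by mouse (1 or 2), whereas the RANKL libraries carry a replicate number only, so nothing states that these came from separate animals, and p-values then measure the spread between libraries, which may be technical.

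AP-1 is a dimer of basic leucine zipper proteins, usually a Fos protein paired with a Jun protein, that binds DNA at the sequence TGANTCA. Immediate early genes such as Fos, Jun, Egr1 and Atf3 are switched on within minutes of a growth factor, stress or cytokine signal, largely through MAP kinases, and need no new protein for this. In osteoclasts, the best studied target cell of the cytokine RANKL, c-Fos is required for the response to it.

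Promoter sequences of the genes whose transcription is compared first are shown so that the control elements can be read beside the values. RefSeq (GRCm38.p6) gave a promoter window, 250 bases before to 50 after the annotated start, for 8 of the 10 members; Fosl1 and Egr1 had no entry. The bases before the start are printed 5′ to 3′ on the gene's strand, at chr12:85473640-85473889 (plus strand) for Fos, chr7:19310046-19310295 (minus) for Fosb, chr4:95052223-95052472 (minus) for Jun, chr1:191183334-191183583 (minus) for Atf3 and chr5:32136222-32136471 (plus) for Fosl2. Capitals mark matches to the motifs named in the next paragraph.
Fos: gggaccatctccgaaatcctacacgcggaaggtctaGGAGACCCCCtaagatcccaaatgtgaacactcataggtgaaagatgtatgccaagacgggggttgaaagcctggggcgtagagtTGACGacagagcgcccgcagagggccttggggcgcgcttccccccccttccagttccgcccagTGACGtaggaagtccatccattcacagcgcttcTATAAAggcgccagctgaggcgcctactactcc
Fosb: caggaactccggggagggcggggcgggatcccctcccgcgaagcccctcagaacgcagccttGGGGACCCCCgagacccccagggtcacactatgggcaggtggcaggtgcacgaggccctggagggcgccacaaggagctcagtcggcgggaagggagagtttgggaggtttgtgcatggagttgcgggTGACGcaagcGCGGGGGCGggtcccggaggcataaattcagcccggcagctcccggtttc
Jun: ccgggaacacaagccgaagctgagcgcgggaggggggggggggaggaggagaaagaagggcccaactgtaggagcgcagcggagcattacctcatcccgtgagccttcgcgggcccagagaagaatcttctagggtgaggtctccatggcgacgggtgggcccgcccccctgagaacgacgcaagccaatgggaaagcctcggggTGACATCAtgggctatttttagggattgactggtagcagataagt
Atf3: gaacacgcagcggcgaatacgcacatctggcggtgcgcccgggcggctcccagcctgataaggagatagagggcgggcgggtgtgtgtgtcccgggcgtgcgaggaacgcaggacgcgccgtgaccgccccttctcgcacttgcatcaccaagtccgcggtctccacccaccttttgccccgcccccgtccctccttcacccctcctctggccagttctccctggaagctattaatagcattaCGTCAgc
Fosl2: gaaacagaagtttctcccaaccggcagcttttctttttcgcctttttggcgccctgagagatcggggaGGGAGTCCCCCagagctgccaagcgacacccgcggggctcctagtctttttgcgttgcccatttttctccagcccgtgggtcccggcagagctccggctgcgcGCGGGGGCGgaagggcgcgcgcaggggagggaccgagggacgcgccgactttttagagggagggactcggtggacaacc

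Motifs were searched on both strands. The AP-1 site TGANTCA, the cAMP response element TGACGTCA and the CArG box of serum response factor each had 0 matches in the 8 windows. Of 32851 promoters of the same length, 7.81%, 1.79% and 1.63% held them. At shares this low, 0 matches in 8 windows do not show that the elements are lacking. Bases further than 250 before the start were not searched, nor were Fosl1 and Egr1. A match to the kappa B site, the element read by NF-kB, was present in 3 of 8 (Fos, Fosb and Fosl2; 8.46% of all promoters), and the Egr site GCGNGGGCG in Fosb and Fosl2 (5.55% of all). In Fosb and Fosl2 the kappa B match reads on both strands at the same bases, at positions -188 to -179 and -182 to -173, counted from the annotated start. The TATA sequence TATAAA lies at -33 to -28 in Fos, and it also matched at the annotated start of Junb (13.6% of all promoters). A further pair of motifs was chosen after the sequences had been read: TGACG, the core of the cAMP response element, in 5 of 8 windows (Fos, Fosb, Junb, Atf3 and Batf; 20.8% of all), and the octamer TGACATCA in Jun, at -45 to -38 (3.62% of all). The Atf3 match to TGACG lies at -7 to -3, on the opposite strand. These matches describe the letters only.

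Nascent transcription is given as log2 values that the authors had normalized, read over the whole gene (mm9), and a difference of 1 is a doubling on that scale. Marker sums were highest in the culture of the matching name, by less for stem cells. The summed level of 8 M cell genes was 13.32 and 13.40 in RANKL against 9.87 to 10.79 elsewhere. That of 8 enterocyte genes was 15.68 and 16.48 in ENRI, 14.82 and 14.96 in RANKL, and 13.19 and 12.15 in WENRC. RANKL thus lay above WENRC in this sum, and in Alpi, Apoa1, Apoa4, Sis and Slc5a1 of the list. Fabp1 and Fabp2 overlapped between these 2 cultures, and Lct was lower in RANKL (6.57 and 6.78, against 7.30 and 7.24). The sum of 8 stem cell genes was 14.37 and 14.43 in WENRC, up to 14.08 in RANKL and 11.98 and 12.64 in ENRI. This list was split: Lgr5, Ascl2, Smoc2, Cdca7 and Slc12a2 were higher in WENRC than in RANKL, and Axin2 overlapped. Olfm4 was higher in RANKL (10.90 and 11.05, against 8.83 and 9.12 in WENRC), as was Tnfrsf19 (10.89 in each, against 8.92 and 9.48). Of 11 immune markers found, 7 passed the minimum for testing and their list summed to 8.67 to 9.28 in all libraries. The macrophage markers Cd68 (7.51 to 8.52), Csf1r (6.78 to 7.51) and Itgam (4.70 to 5.77) had the highest values of the list, not divided by gene length. Lyz2, also made by macrophages, was low at 3.03 to 3.48, and Itgax lay at 1.03 to 1.27. The general leukocyte marker Ptprc was at 3.07 to 4.68, and Cd3e, a T cell marker, at 2.42 to 3.07. The part of these markers in the results was not tested. Of 9 stromal markers, 2 passed it (Acta2 and Pdgfrb); Col1a1, Col1a2, Col3a1, Pdgfra, Dcn, Lum and Vim stayed below 3.32 in all libraries, while Pdgfrb, at 9.21 and 9.26 in RANKL against 6.44 to 7.68, placed the list sum higher in RANKL (9.55 and 9.61, against 8.11 to 8.73). Its part in the results was not tested. Per the file header, the RANKL reads come from a resequencing run that the other libraries were not in, so run and culture cannot be told apart in either RANKL comparison. Fewer transcribing cells and less transcription per cell cannot be told apart in these bulk libraries either.

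Of the 10 members, 5 (Fos, Fosb, Jund, Atf3 and Egr1) were called lower in RANKL than in both other cultures. Fos, the namesake c-Fos subunit (NM_010234, chromosome 12, 86814851 to 86818219), had values of 8.85 and 8.78 in RANKL, 10.92 and 11.32 in ENRI, and 10.11 and 10.30 in WENRC. The 3 cultures did not overlap and ran in the order ENRI, WENRC, RANKL. In RANKL it was 4.95-fold lower than in ENRI (log2 change -2.31, SE 0.175, limma FDR 0.00215), and lower than in WENRC by a log2 change of -1.40 (SE 0.175, limma FDR 0.00816). Fosb, a Fos paralog with the same kind of signal-driven induction (NM_008036, chromosome 7, 19888045 to 19895394), had 8.15 and 7.99 in RANKL, 9.79 and 10.93 in ENRI, and 9.54 and 9.94 in WENRC. Both RANKL values lay below the other 4, while ENRI and WENRC overlapped. Its changes were -2.29 against ENRI (SE 0.373, limma FDR 0.0125) and -1.67 against WENRC (limma FDR 0.0403).

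The 2 Fos-related antigens did not follow Fos. Fosl2, which encodes Fra-2 (NM_008037, chromosome 5, 32438845 to 32460212), had 11.72 and 11.75 in RANKL, 11.94 and 12.08 in ENRI, and 11.25 and 11.33 in WENRC. RANKL was thus between the other cultures, with differences of -0.27 from ENRI (SE 0.139, limma FDR 0.218) and 0.45 from WENRC (limma FDR 0.0932), neither past the threshold. Fosl1, which encodes Fra-1 (NM_010235, chromosome 19, 5447698 to 5455938), had 6.99 and 7.19 in RANKL, 7.35 and 6.42 in ENRI, and 7.22 and 7.41 in WENRC. Its ENRI libraries lay 0.93 apart and spanned the RANKL values, with no call in any comparison. Fosl1 overlaps Ccdc85b, and its reads could not be assigned to 1 of them with certainty.

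The make-up of the Fos family differed between cultures on a per-length scale (linear value per kb of gene, as a share of the 4 family genes). Fos held 39.1% and 37.8% of the family signal in RANKL, against 64.0% and 61.3% in ENRI and 58.5% and 57.6% in WENRC. Fosl2 held 45.3% and 47.0% in RANKL, against 16.4% to 20.5% in the other 4 libraries. The order of these 2 genes was therefore turned in RANKL, where Fosl2 ranked above Fos. Fosb held at most 11.1% in RANKL and 13.4% to 21.5% elsewhere, and Fosl1 0.84% to 5.14% over all libraries. The summed family signal was 8.45 and 8.43 (log2 per kb) in RANKL and 9.14 to 10.27 in the other libraries. These shares are a description, with no test.

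**Figure D1:**
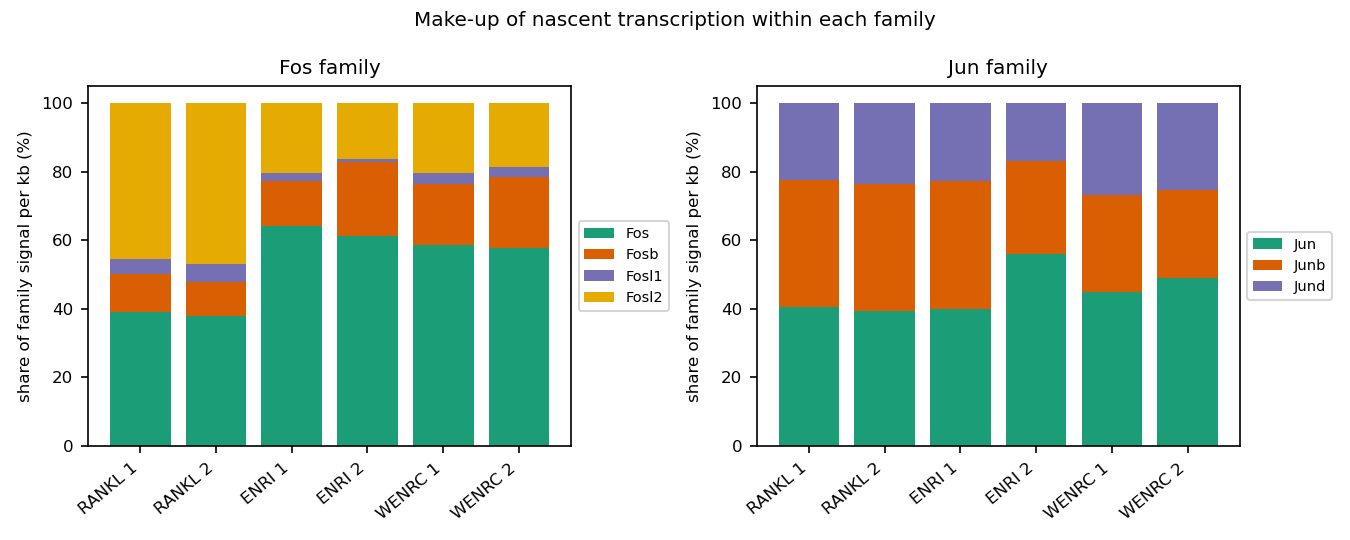
Stacked bars give, for each GRO-seq library, the share (%) of the per-kb signal of the Fos family (left) and Jun family (right) held by each gene. Fosl2 holds 45.3% and 47.0% of the Fos family in the RANKL libraries and at most 20.5% elsewhere, and Junb holds 37.3% and 37.0% of the Jun family in RANKL against 28.3% and 25.6% in WENRC.

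The Jun genes encode the obligate partners of the Fos proteins. Jun (c-Jun; NM_010591, chromosome 4, 94715727 to 94718913) had 9.73 and 9.80 in RANKL, 10.30 and 11.48 in ENRI, and 10.53 and 10.99 in WENRC. The RANKL values were the lowest, but the wide ENRI and WENRC pairs left differences of -1.12 (SE 0.386, limma FDR 0.0905) and -0.99 (limma FDR 0.154) short of the threshold. With the mouse as a block in ENRI and WENRC, both were past it (limma FDR 0.0135 and 0.0256), but not with the library number as a block in all cultures (0.0524 and 0.0970), and over 15 alternative settings Jun was called against ENRI in 2 and against WENRC in 5. The size against ENRI rested on single libraries: it was -1.71 without ENRI replicate 1 and -0.53 without ENRI replicate 2. Junb (NM_008416, chromosome 8, 87500808 to 87502647) had 8.82 and 8.92 in RANKL, 9.40 and 9.65 in ENRI, and 9.07 and 9.26 in WENRC. It was lower in RANKL than in ENRI (log2 change -0.65, SE 0.154, limma FDR 0.0336), a call kept in 9 of 15 alternative settings and lost when only RANKL and ENRI libraries were fitted (limma FDR 0.0668, and 0.116 with a replicate block), and its difference from WENRC was -0.29 (limma FDR 0.269). Jund, in many tissues the constitutively made Jun gene (NM_001286944, chromosome 8, 73221638 to 73224515), had 8.73 and 8.93 in RANKL, 9.33 and 9.60 in ENRI, and 9.64 and 9.89 in WENRC. Its RANKL values lay below all others, and WENRC was the highest culture. The changes were -0.94 against WENRC (SE 0.170, limma FDR 0.0224) and -0.64 against ENRI (limma FDR 0.0473), the latter past the threshold in only 4 of 15 alternative settings. Within the Jun family, Jun held 39.3% to 56.0% of the per-kb signal, Junb 25.6% to 37.3% and Jund 16.8% to 26.9%. ENRI overlapped RANKL in all 3 shares, whereas WENRC had a lower Junb share (28.3% and 25.6%, against 37.3% and 37.0% in RANKL) and a higher Jun share (44.8% and 49.0%, against 40.4% and 39.3%).

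Atf3 and Batf are further basic leucine zipper members that pair with Jun proteins. Atf3, a stress-induced factor (NM_007498, chromosome 1, 192994176 to 193007212), had 9.29 in each RANKL library, 10.98 and 11.70 in ENRI, and 10.64 and 11.51 in WENRC. The RANKL libraries were the lowest and nearly identical, and ENRI and WENRC overlapped. It was lower in RANKL by a log2 change of -2.05 against ENRI (SE 0.347, limma FDR 0.0139) and -1.78 against WENRC (limma FDR 0.0272). Batf, best known from lymphocytes, where it acts with Jun and Irf proteins (NM_016767, chromosome 12, 87027670 to 87050037), was the weakest member, with 4.93 and 4.34 in RANKL, 5.35 and 5.22 in ENRI, and 5.49 and 5.49 in WENRC. Its RANKL values were again the lowest, but differences of -0.65 (limma FDR 0.113) and -0.86 (limma FDR 0.0775) did not pass the threshold. In the authors' deposited table the Batf difference from WENRC was -2.02 (adjusted p 0.0721), so its size depends on the scale used.

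Egr1, a zinc finger immediate early factor outside AP-1 (NM_007913, chromosome 18, 35020861 to 35024610), had 8.89 and 9.12 in RANKL, 10.50 and 11.22 in ENRI, and 10.31 and 10.64 in WENRC. The RANKL pair was again separate from the other 4 libraries. Its changes were -1.85 against ENRI (SE 0.265, limma FDR 0.00890), 3.61-fold lower, and -1.47 against WENRC (limma FDR 0.0222).

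**Figure D2:**
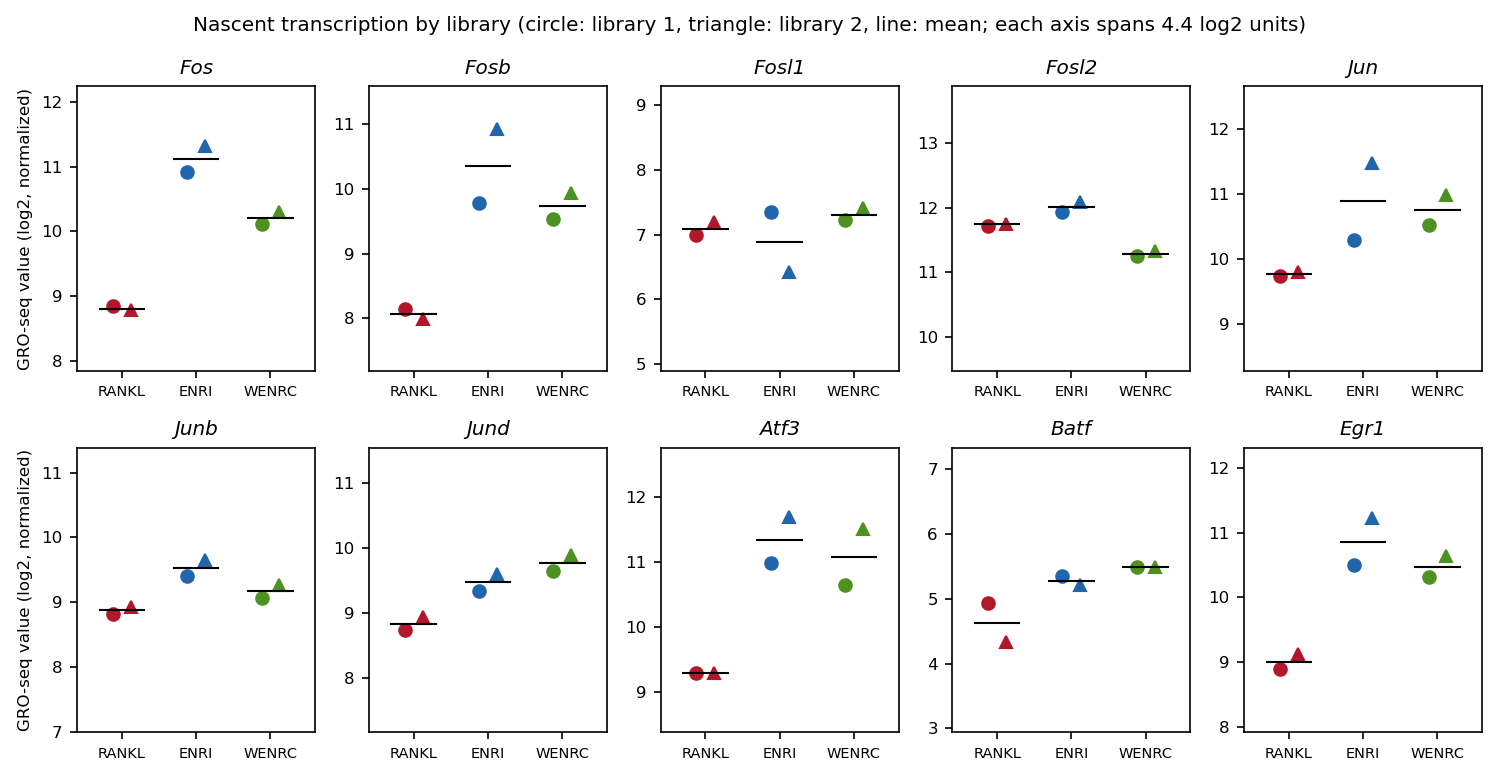
Each panel plots the log2 normalized GRO-seq value of 1 member in the 6 libraries by culture (circle, library 1; triangle, library 2; line, mean of 2), with panels centred differently but spanning the same range. In 8 of 10 panels both RANKL points lie below the other 4; Fosl1 and Fosl2 are the exceptions.

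Over all members, 6 of 10 were called lower in RANKL than in ENRI (Fos, Fosb, Junb, Jund, Atf3 and Egr1) and 0 higher, where 10.5% of 16563 tested genes were called lower and 10.4% higher (20.9% in either direction). Against WENRC, 5 of 10 were called lower (Fos, Fosb, Jund, Atf3 and Egr1) and 0 higher, where 3.62% of genes were called lower and 8.53% higher (12.1% in either direction). The 5 members called lower in both comparisons stand beside 1.8% of tested genes. All 10 passed the minimum for testing. Both RANKL libraries lay below the other 4 in 8 members, and in 16.9% of tested genes. The median member difference was -0.89 against ENRI and -0.96 against WENRC, with medians over all tested genes of -0.0048 and -0.0073. In 0 members did both RANKL libraries lie above the other 4, as they did in 20.3% of tested genes. The 2 comparisons share the RANKL libraries. The members were chosen with earlier results of these data known, so counts of members are no independent support.

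In the authors' deposited table, 5 members were lower in RANKL than in ENRI at an adjusted p under 0.05 (11.0% of tested genes, and 19.6% in either direction), with Jun in place of Junb and Jund. There, 6 were lower than in WENRC (11.1%, and 27.8% in either direction), and Fosl2 was higher in RANKL by 0.50 (authors' deposited table, adjusted p 0.000669). Fos, Fosb, Jund, Atf3 and Egr1 all had larger deposited log2 changes than limma ones in both RANKL comparisons. Against ENRI the deposited changes were -2.7, -2.85, -0.77, -2.42 and -2.21, so fold sizes depend on the scale used. The calls depended on having both RANKL libraries: without RANKL replicate 1, only Fos passed against ENRI (limma FDR 0.0499), and without RANKL replicate 2 no member did (Fos, limma FDR 0.0550). Against WENRC, leaving out any RANKL or WENRC library left 0 members called (lowest limma FDR for Fos 0.0603), although the changes of Fos stayed between -1.30 and -1.49.

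**Figure D3:**
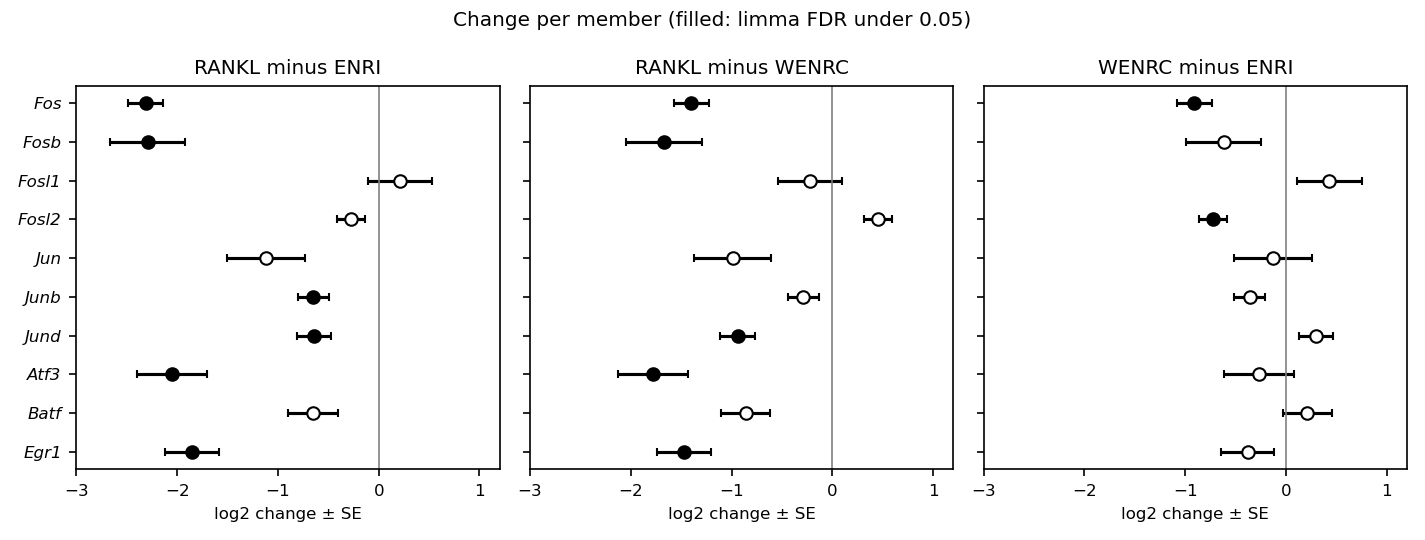
Points give the log2 change of each member with its SE from the fit over 6 libraries, for RANKL minus ENRI, RANKL minus WENRC and WENRC minus ENRI; filled points have a limma FDR under 0.05. Fos, Fosb, Jund, Atf3 and Egr1 are filled and negative in both RANKL comparisons, and Fos and Fosl2 in the third.

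WENRC and ENRI were compared to see how the same genes differ between stem cell and enterocyte cultures of the same mice. Fos was lower in WENRC (log2 change -0.91, SE 0.175, limma FDR 0.0258), by -0.80 in mouse 1 and -1.02 in mouse 2. Fosl2 was lower as well (-0.72, SE 0.139, limma FDR 0.0263), by -0.69 and -0.75. These were the 2 members called lower, where 9.74% of tested genes were, and 0 were called higher (4.85%; 14.6% in either direction). The authors' deposited table had the same 2 members lower at an adjusted p under 0.05 (9.24% of tested genes, and 12.5% in either direction). Both calls needed the spread of the RANKL pair: fitted on the ENRI and WENRC libraries alone, the limma FDR was 0.103 for Fos and 0.121 for Fosl2, and 0.0993 and 0.150 with the mouse as a block. Leaving out RANKL replicate 1, RANKL replicate 2, WENRC replicate 1 or WENRC replicate 2 also left 0 members called, whereas leaving out ENRI replicate 1 gave 6 lower and 1 higher (Fosl1). Jun, Jund, Atf3, Batf, Egr1, Junb, Fosb and Fosl1 had differences between -0.62 and 0.43, none past the threshold. Jun differed in sign between the mice (0.23 in mouse 1 and -0.49 in mouse 2).

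Mouse 2 had higher values than mouse 1 for 8 of 10 members in both ENRI and WENRC, against 21.0% of tested genes. Atf3 was 0.72 higher in ENRI and 0.87 in WENRC, Jun 1.18 and 0.46, Fosb 1.15 and 0.41, and Egr1 0.72 and 0.33. These 4 members exceeded 0.3 in both cultures, as did 9.27% of tested genes. Fosl1 (-0.93 and 0.19) and Batf (-0.13 and -0.01) were the exceptions. The libraries of mouse 1 and mouse 2 also carry different dates in the file header, so mouse and date cannot be told apart, and the number of 2 mice allows no test of their difference.

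Levels of different genes can be compared only per length. On the log2 per kb scale, the ENRI means ran from Fos (9.37), Jun (9.22) and Egr1 (8.95) down to Fosl1 (3.84) and Batf (0.80), around a median over tested genes of 3.63. In RANKL the order was Jun (8.10), Junb (7.99), Fosl2 (7.32), Jund (7.31), Egr1 (7.10), Fos (7.06), Atf3 (5.59), Fosb (5.19), Fosl1 (4.05) and Batf (0.15), with a median of 3.69. The neighbours Fosl2 and Jund, and Egr1 and Fos, differed by less than the larger SD of the pair (0.14 for Jund and 0.16 for Egr1). In WENRC the leading genes were Jun (9.09), Egr1 (8.57), Fos (8.45), Junb (8.29) and Jund (8.24). In ENRI the means of Fos, Jun and Egr1 lay closer together than the SD of Jun (0.84), so their order there is not resolved. Batf was the lowest member in each culture.

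The list of other immediate early genes, like the lists below, came from general knowledge. It was chosen with earlier results of these data known, so its counts are no independent support. Calls among these genes were also in the lower direction in RANKL. Of 19 tested, 9 were called lower than in ENRI and 0 higher, beside 10.5% and 10.4% of all tested genes, with a list median of -1.03. Btg2, an antiproliferative gene, had 9.10 and 9.19 in RANKL, 11.24 and 11.25 in ENRI, and 10.38 and 10.74 in WENRC (log2 change against ENRI -2.10, limma FDR 0.00215). Zfp36, which encodes the mRNA-destabilizing protein tristetraprolin, changed by -2.25 (limma FDR 0.00581), with 9.05 in each RANKL library against 10.87 and 11.72 in ENRI. The other 7 called genes were Klf4, Klf6, Klf2, Ier2, Ier5, Nr4a2 and Csrnp1. Against WENRC, 3 were called lower (Btg2, log2 change -1.42, limma FDR 0.00671; Ier2, -1.07, limma FDR 0.0205; and Gadd45b) and 0 higher, beside 3.62% and 8.53% of all tested genes, with a list median of -0.60. Myc and Arc lay above 0 against ENRI, at 0.72 (limma FDR 0.284) and 0.32 (limma FDR 0.494). In WENRC against ENRI, 6 were called lower and 0 higher (9.74% and 4.85% of all tested genes), led by Csrnp1 (-0.96, limma FDR 0.0133) and Zfp36 (-1.68, limma FDR 0.0189), with a median of -0.14.

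MAP kinase feedback genes, whose products (dual specificity phosphatases and Sprouty proteins) damp the signal that induces AP-1, had calls in both directions. Of 14 tested, 5 were called lower than in ENRI (Dusp6, Dusp1, Dusp5, Dusp10 and Spry2) and 1 higher (Dusp16, log2 change 0.59, limma FDR 0.0408), beside 10.5% and 10.4% of all tested genes, with a list median of -0.04. Dusp6, the phosphatase of ERK, had 6.96 and 7.25 in RANKL, 9.56 and 9.65 in ENRI, and 8.32 and 8.34 in WENRC. Its cultures did not overlap, in the same order as Fos, and it changed by -2.50 against ENRI (limma FDR 0.00153) and -1.23 against WENRC (limma FDR 0.00861). Dusp1, itself an immediate early gene, changed by -1.78 against ENRI (limma FDR 0.00656). Dusp16 was the only feedback gene called higher than in WENRC (0.82, limma FDR 0.0223), and Dusp6 the only one called lower (8.53% and 3.62% of all tested genes), with a list median of -0.60. In WENRC against ENRI, Dusp6 (-1.27, limma FDR 0.0111) and Dusp5 (-2.64, limma FDR 0.0195) were called lower and Spry1 (0.90, limma FDR 0.0463) higher. Of all tested genes, 9.74% were called lower and 4.85% higher there, and the list median was -0.04.

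**Figure D4:**
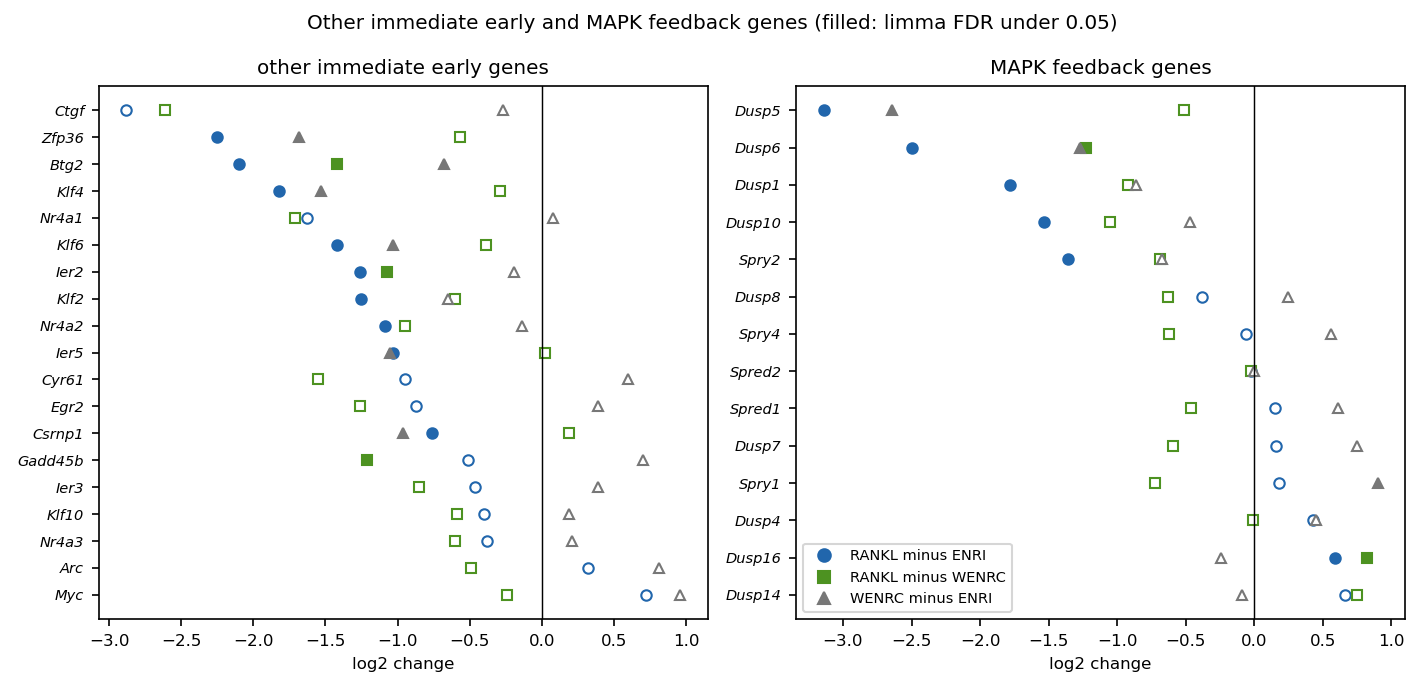
Points give the log2 change of each tested gene of 2 lists (left, other immediate early genes; right, MAP kinase feedback genes) in the 3 comparisons, named by colour and shape; filled points have a limma FDR under 0.05. On the left 9 genes are filled and negative for RANKL minus ENRI and 3 for RANKL minus WENRC; on the right Dusp6 is filled in all 3 comparisons and Dusp16 lies above 0 in both RANKL comparisons.

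The kinases and the serum response factor group act upstream of the immediate early genes. Of 25 tested, 2 were called higher in RANKL than in ENRI (Map2k7, 0.85, limma FDR 0.0275, an activator of JNK, and Map3k1, 0.60, limma FDR 0.0457) and 1 lower (Map2k3, -1.02, limma FDR 0.0108, an activator of p38). Against WENRC, Map3k1 was called higher (0.66, limma FDR 0.0495) and 0 lower, and in WENRC against ENRI 3 were called lower, led by Mapk8 (-0.84, limma FDR 0.0191), which encodes JNK1, and Map2k3 (-0.93, limma FDR 0.0194). Calls in either direction were thus 3, 1 and 3 of 25, beside 20.9%, 12.1% and 14.6% of all tested genes. List medians were 0.04, 0.17 and -0.06.

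Among 15 tested genes of other AP-1 and related zipper factors, 4 were called lower in RANKL than in ENRI, among them Mafk (-1.34, limma FDR 0.00921), Nfil3 (-1.46, limma FDR 0.0168) and Crem (-0.83, limma FDR 0.0257), and Atf5 was called higher (1.11, limma FDR 0.0116). Against WENRC, Maf was called higher (2.21, limma FDR 0.00792) and Jdp2, a repressor partner of Jun, lower (-2.29, limma FDR 0.0234). Jdp2 had 5.48 and 5.61 in RANKL, 7.13 and 5.98 in ENRI, and 7.49 and 8.19 in WENRC. The 5 and 2 calls in the RANKL comparisons stand beside 20.9% and 12.1% of all tested genes, with list medians of -0.16 and -0.05. In WENRC against ENRI, Atf5 was called higher (1.78, limma FDR 0.00828), and Mafk (-1.29, limma FDR 0.0152) and Maf (-1.45, limma FDR 0.0246) lower. These calls stand beside 4.85% of all tested genes called higher and 9.74% called lower, with a list median of -0.17.

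Of 13 genes known as partners or targets of c-Fos in osteoclasts, 8 were tested. Acp5, which encodes the osteoclast enzyme TRAP, had 6.20 and 5.85 in RANKL, 7.70 and 8.15 in ENRI, and 7.53 and 7.21 in WENRC. It was the only one called: lower against ENRI (-1.90, limma FDR 0.00647) and against WENRC (-1.35, limma FDR 0.0224), where 10.5% and 3.62% of all tested genes were called lower. Nfatc1, the main osteoclast factor downstream of c-Fos, had means of 9.11 in RANKL, 9.30 in ENRI and 9.06 in WENRC, with differences of -0.19 (limma FDR 0.434) and 0.05 (limma FDR 0.877). List medians were -0.26 against ENRI and 0.15 against WENRC, and 0 genes were called in WENRC against ENRI (median -0.26).

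Genes outside the member set were ranked by how close their profile over the 6 libraries was to a member's. Of those named below, Btg2 and Nr4a1 are on the list of other immediate early genes, and the rest are not. Closeness was the Euclidean distance between centred log2 values. All tested genes except the members were searched, so another member can lie closer than the genes named here. The nearest to Fos were Sulf2 (distance 0.27), Lgals3 (0.33) and Btg2 (0.41). Nearest to Jun were 0610009L18Rik (0.41), Mcoln2 (0.42) and the stress-response gene Ddit3 (0.42), and nearest to Egr1 were Gm15506 (0.33), A530013C23Rik (0.39) and Rhob (0.43). Among the genes searched, Nr4a1, an immediate early nuclear receptor gene, was the nearest to Atf3 (0.67), then A530013C23Rik (0.70) and Gm15506 (0.75). Arhgap31 was the nearest of them to Batf (0.21), followed by AI463170 (0.25) and Clhc1 (0.27). The 6 libraries share 3 cultures and, in ENRI and WENRC, 2 mice.

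H3K27me3 was compared between RANKL and WENRC from regions the authors called in 1 culture over the other. Pooled RANKL held 32.7 M tags and WENRC 36.3 M, and the authors scaled WENRC tags to the RANKL depth. There is no replicate check, so folds are the authors' ratios of tags and are given as descriptions. RANKL-higher regions were assigned to 6 members (Fosb, Fosl1, Jun, Atf3, Batf and Egr1), 27 regions in all, where 32.3% of tested genes had at least 1. Within 5 kb of the start, 4 members had such a region (Fosb, Fosl1, Atf3 and Batf), against 18.0% of tested genes, and within 50 kb 5 members did (28.7%). WENRC-higher regions were assigned to 2 members, Atf3 and Egr1 (23.3% of tested genes), with 0 members within 5 kb (5.01%) and 2 within 50 kb (17.7%). Fos, Fosl2, Junb and Jund had none in either table. The median fold of the 27 regions was 2.68, against 2.92 over the 35798 RANKL-higher regions.

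Batf had a region over its start site, chr12:87026758-87028253, with 77 RANKL tags (exact Poisson 95% interval 60.8 to 96.2, counting error only) against 31.5 scaled WENRC tags, a fold of 2.44. It reached from -912 to 583 relative to the start. A further 5 Batf regions were centred 2218, 17633 and 38811 bases before the start and 2171 and 20298 after it, with folds of 2.15 to 4.44. In the Atf3 promoter a region at -1082 to -162, chr1:193007374-193008294, had 74 tags against 29.7 (fold 2.49), and an intronic region had 31 against 14.4 (fold 2.15). Upstream of Atf3, a RANKL-higher region of 74 against 31.5 tags (fold 2.35) ended 684 bp from a WENRC-higher region of 5 RANKL tags against 20.7 (fold 4.14), so the direction turned within that distance.

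Fosl1 had 4 regions, all within 5 kb: 3306 and 808 bases before the start, 266 after it in an exon, and 3576 after it in an intron. The exonic region, chr19:5447714-5448214, had 28 tags against 9.0 (fold 3.11), and the 4 folds ran from 2.46 to 3.33. Fosb had 8 regions, of which 6 lay upstream between 4477 and 17273 bases from the start, with 403 tags against 149.4 over 8098 bp in all. The highest fold was 3.92, at chr7:19911747-19913587, and 0 of the 8 covered the start. Jun's 4 regions were distant, 111017 to 158061 bases upstream, and included the highest member fold, 10.55, on 19 tags against 1.8. For Egr1, 1 region 27371 bases downstream was higher in RANKL (24 tags against 9.0, fold 2.67), and 2 regions 6592 and 8215 bases upstream were higher in WENRC (folds 2.52 and 4.05).

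**Figure D5:**
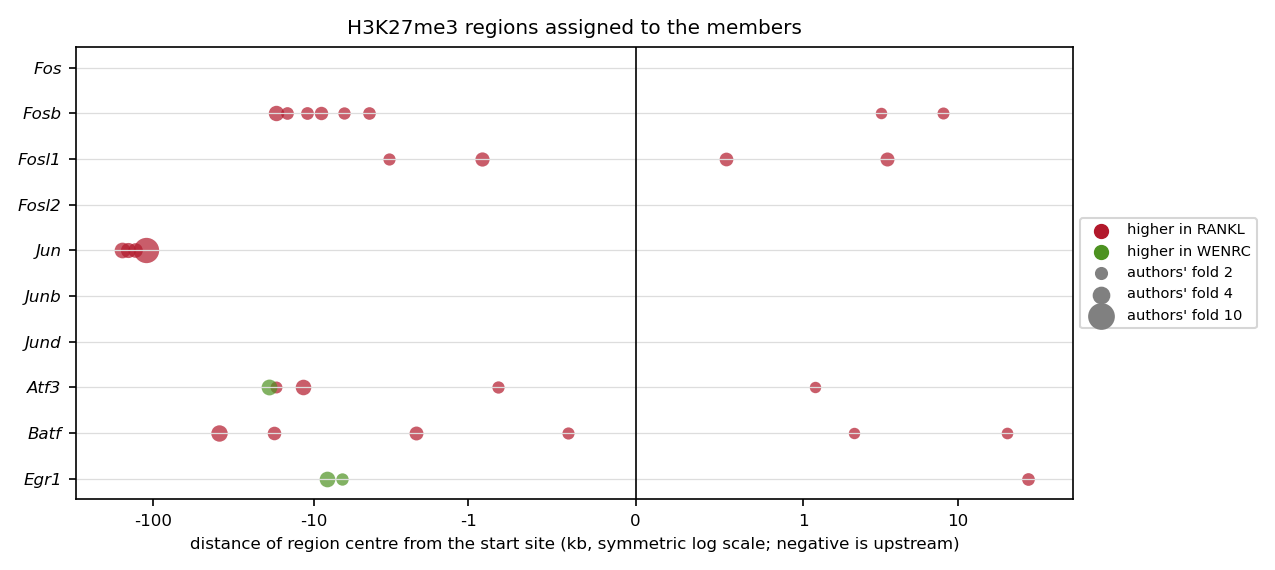
Each circle is an H3K27me3 region assigned to the member named on the vertical axis, placed by the distance of its centre from the start site (kb, symmetric log scale) and sized by the authors' fold; colour gives the culture in which it is higher. Batf, Atf3, Fosl1 and Fosb have RANKL-higher regions within 5 kb, Jun only beyond 100 kb, and Fos, Fosl2, Junb and Jund none.

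Set side by side, lower transcription in RANKL and a RANKL-higher region near the start did not coincide member by member. Fosb and Atf3 had both, being lower than in WENRC and having 2 such regions each within 5 kb. Fos, Jund and Egr1 were called lower with 0 such regions. Fosl1 had 4 and a difference of -0.22 from WENRC (limma FDR 0.697), and Batf had 3 with -0.86 (limma FDR 0.0775). With 10 members and no replicate of the mark in WENRC, no test of this relation was made.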

How the data were processed

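GRO-seq was measured in 6 libraries and H3K27me3 in 3. The submitters' processing notes name Bowtie2 2.3.4.1, HOMER, DESeq2 and mm9. Per the file headers, the authors counted reads over whole RefSeq genes with HOMER, condensed to 1 transcript per gene, and tested each pair of cultures. The deposited table holds normalized log2 values per library; the transform is not given in the sources used here. Strand handling is not given in the sources used here. GRO-seq depth is unknown, so no interval that needs it is given. The deposited log2 fold changes, p-values and adjusted p-values carry the sign of the second culture minus the first and were turned.

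H3K27me3 regions were called by the authors with HOMER, each culture with the other as control, per the file headers. RANKL tags are deposited counts of 2 pooled libraries. WENRC tags are a deposited signal, scaled by 0.9 (99.8% of values are whole multiples within 0.06), with a floor of 0.5. For each region the authors gave a fold (ratio of tags) and a p-value. Deposited values per 10 M tags gave the depths.

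limma 3.58.1 (R 4.3.3) was run on the deposited log2 values with a variance trend, all 6 libraries in 1 fit of 3 culture means, and no pseudocount. The 16563 of 24505 genes with at least 2 libraries at 3.32 (log2 of 10) or more were tested; FDR is the Benjamini-Hochberg adjusted two-sided p over all of them, and a call is an FDR under 0.05. The fit was tested on simulated data. ENRI and WENRC libraries are paired by the mouse number in the labels (correlation of deviations from culture means 0.414). RANKL numbers name no mouse (-0.205 with ENRI and -0.323 with WENRC). Swapping the RANKL numbers would turn the sign of both values, so they cannot decide whether RANKL libraries match the mice. Alternatives were other libraries in the fit, normalizations, filters, replicate blocks and leaving out each library. All members were named, and from each list the 2 called genes with the smallest p per direction, others being named as part of small counts; members and lists were chosen with earlier results of these data known. List genes came from general knowledge. Protein sequences were not used here, and 1 further gene of the zipper list is not reported here.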

Additional observations from a re-analysis of the deposited data

How the results depend on the processing

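For the 13 calls on members (6, 5 and 2 in the 3 comparisons), all 195 values under the alternatives kept their direction and 136 stayed past the threshold. Fits on the 4 libraries of a comparison alone called 1925 genes in RANKL against ENRI (4 members lower, Junb and Jund being lost), 5194 in RANKL against WENRC (with 1 member higher, Fosl2) and 0 in WENRC against ENRI (0 members; 4074 genes at an unadjusted p under 0.05). With a replicate block on those 4 libraries the counts were 1423, 4686 and 124, with 0 members lower in the last. The number as replicate block over all cultures gave 1506 genes and 1 member (Fos) in WENRC against ENRI. The mouse as replicate block in ENRI and WENRC gave 4749, 2945 and 3545 genes, and beyond Jun it changed no call on a member. Quantile normalization gave 0 members lower in WENRC against ENRI (limma FDR 0.0607 for Fos and 0.159 for Fosl2) and turned Jun to 0.19 and Atf3 to 0.11; in RANKL against WENRC it moved Fosl2 from 0.45 to 0.01. Recentring on upper quartiles moved the median of all genes to -0.12 in RANKL against WENRC and the share of higher calls from 70.2% to 53.3%, and that share from 33.2% to 54.1% in WENRC against ENRI; 5, 5 and 2 members were then called, Jund against ENRI being lost.

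Leaving out 1 library gave 64 to 6966 genes called in RANKL against ENRI (0 to 7 members lower, 0 to 1 higher), 0 to 5176 in RANKL against WENRC (0 to 7 lower, 0 to 1 higher) and 0 to 6650 in WENRC against ENRI (0 to 6 lower, 0 to 1 higher). The 0 genes called without RANKL replicate 1 or 2 against WENRC compare with 2702 and 2486 at an unadjusted p under 0.05. A lone library is then assumed to vary like the other groups. Over the same leave-outs Fosl1 ran from -0.26 (without ENRI replicate 2) to 0.67 (without ENRI replicate 1) in RANKL against ENRI. In WENRC against ENRI, Fosl1 ran from -0.033 to 0.89, Jun from -0.72 to 0.46 and Atf3 from -0.70 to 0.17; without ENRI replicate 2 Jun was 0.46 and Atf3 0.09, and without WENRC replicate 1 they were 0.10 and 0.17. Of the 27 RANKL-higher regions at members, 4 had an authors' fold of at least 4 and 11 lay within 5 kb of a start; of the 3 WENRC-higher regions, 0 lay within 5 kb.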

Other observations

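Fos and Batf lie 209 kb apart on chromosome 12 with Jdp2 (86940055 to 86980828) between them, a locus looked at after its values had been seen. Between the end of Fos and the start of Batf, 10 regions were higher in RANKL for H3K27me3 and 0 in WENRC. Over all regions, 35798 were higher in RANKL and 13607 in WENRC. Of the 10 in the locus, 7 were assigned to Jdp2 and 3 to Batf, and 0 to Fos. The Jdp2 regions had authors' folds of 2.15 to 3.89, the nearest with its centre 1496 bases after the Jdp2 start. Over the same locus, nascent transcription in RANKL differed from WENRC by -1.40 for Fos (limma FDR 0.00816), -2.29 for Jdp2 (limma FDR 0.0234) and -0.86 for Batf (limma FDR 0.0775). A relation between the mark and transcription in this locus was not tested.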
